A study of Schizosaccharomyces pombe with 8 samples.

Results

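The 109 genes described here are genes of the fission yeast *Schizosaccharomyces pombe* that have no gene name in the deposited table and whose systematic identifiers begin with SPAC212, SPAC977, SPAC1F8, SPAC5H10, SPAC186, SPAC750, SPBPB, SPBC1348, SPBC1683, SPBC1289 or SPBCPT2R1. These starts name the sequenced clones that cover the ends of chromosomes I and II. The identifiers alone chose the members, and no measured value did. The members were 109 of the 5165 genes in the table, 1419 of which had no name, and 50 named genes with the same identifier starts are given as neighbours. Matched by identifier to the ASM294v3 assembly, 90 of the 109 members lay within 100 kb of a chromosome end. The other 19 lay farther in, among them the SPAC5H10 genes at 147 to 166 kb, the SPBC1683 genes at 134 to 169 kb and SPBC1289.14 at 126 kb. The 2 SPBPB7E8 genes lay 1038 and 1043 kb from the right end of chromosome II, so their identifier places them in the group but their position does not place them near an end.

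Poly(A) RNA was sequenced from cultures grown in the rich medium YE5S, with 2 libraries in each of 4 groups. These were Δ*top1* cells (strain RF14, in which a kanMX6 cassette disrupts *top1*) treated for 30 min with 1 mM H2O2, the same strain untreated, wild-type cells (strain 972) treated in the same way, and untreated wild-type cells. Each genotype was represented by 1 strain, so the loss of *top1* and any other difference between the strains cannot be told apart. Between 16090015 and 19899720 reads fell on genes in each library, and a value of 1 read was worth 0.815 to 1.242 normalized counts, since reads were scaled by a size factor for each library. *top1* itself had 244 and 244 normalized counts in treated Δ*top1* cells, 309 and 286 in untreated Δ*top1* cells, 2013 and 2513 in treated wild-type cells and 1967 and 2150 in untreated wild-type cells. The *top1* signal was thus lower in the libraries labelled Δ*top1*, though not absent, with log2 differences of -3.20 ± 0.12 (SE) with H2O2 and -2.79 ± 0.12 without. In cultures, fewer cells carrying a transcript and less of it in each cell cannot be told apart.

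Topoisomerase I relaxes the supercoils that build up around transcribing RNA polymerase by nicking DNA and sealing it again. The ends of fission yeast chromosomes carry telomeric repeats next to subtelomeric regions, which are packed into heterochromatin and repressed, and which hold families of near-identical genes of unknown function beside genes for transport and metabolism. Peroxide activates the MAP kinase Sty1, which acts through the bZIP factor Atf1, and the bZIP factor Pap1, and these pathways induce a large set of stress genes.

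Among the 109 members, 96 were typed as protein-coding and 13 as pseudogenes in the table, and 23 carry a symbol in the ASM294v3 annotation. Copies are frequent in this group. For 61 of 109 members, over 10% of the gene's 31-base words also occurred in another gene, against 164 of 5129 genes in the whole table, and for 55 members it was over 50%. Reads of 50 bases from such genes may be split between copies by the counting, so sums over copies are given for several families. A further limit is that 15 members overlap a gene on the opposite strand, and the strand setting of the counting is not given in the sources used here. Genes were tested where their normalized counts averaged 10 or more across libraries, and 78 members passed. Of the 31 that did not, 4 had no read in any library, and counting these 4, 11 had at most 3 reads in every library. The filter let in 12 members whose mean in 1 strain was below 10, 9 of them low in wild-type and 3 low in Δ*top1* cells, and such genes could only pass through the strain in which they were high.

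The first question was how these genes respond to peroxide in each strain, and the second was whether they differ between the strains. With H2O2, 31 of the 78 members tested rose at least 2-fold in Δ*top1* cells (39.7%, where 12.6% of all 5019 genes tested rose) and 24 rose in wild-type cells (30.8%, against 12.2% of all genes). Fewer fell, 6 in Δ*top1* cells (10.8% of all genes fell) and 5 in wild-type cells (6.41% of members, 11.3% of all genes). Between the untreated strains, 6 members stood 2-fold or more higher in Δ*top1* cells (7.69%, against 0.179% of all genes) and 1 was lower (0.239% of all genes). Between the treated strains, 28 stood 1.5-fold or more higher in Δ*top1* cells (35.9%, against 4.86% of all genes) and 5 were lower (4.52% of all genes). By library, the treated values lay above all untreated ones for 46 members in Δ*top1* cells (42.4% of all genes did) and for 36 in wild-type cells (40.9%), and below them for 17 (42.7%) and 13 (40.7%), while treated Δ*top1* values lay above the treated wild-type ones for 41 (32.5%) and below them for 15 (30.9%). Without treatment Δ*top1* values lay above for 33 (20.7%) and below for 8 (15.9%). All calls used limma with a Benjamini-Hochberg adjusted p under 0.1 over the 5019 genes. The 9 genes higher in untreated Δ*top1* cells in the whole table therefore included 6 of these members. Among these 6, SPAC186.04c, SPAC750.01, SPAC750.05c and SPAC750.06c had wild-type means of 9.78, 9.03, 0 and 0, and could pass the filter only through Δ*top1* cells. The same held for SPAC186.08c, SPBPB21E7.02c and SPBPB21E7.10 among those higher in treated Δ*top1* cells. SPAC212.01c and SPAC977.01, among those lower, could pass only through wild-type. These calls are not independent of the filter. The same holds for rises with H2O2 in genes that could pass only through treated libraries, such as SPAC186.08c, SPBPB21E7.02c and SPBPB21E7.10 in Δ*top1* cells. Among the 49 named neighbours tested, 15 rose in Δ*top1* cells, 12 rose in wild-type cells, 1 was higher in untreated Δ*top1* cells and 9 were higher in treated Δ*top1* cells.

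The calls were not spread evenly over the clones. The median log2 change of the 6 SPAC186 genes tested was 2.78 with H2O2 in Δ*top1* cells and 2.29 in wild-type cells, and the median difference between the strains was 4.77 with H2O2 and 4.2 without. The 4 SPAC750 genes had medians of 1.97 with H2O2 in Δ*top1* cells and 0 in wild-type cells, and a median strain difference of 8.02 with H2O2 and 6.94 without, or 6.21 and 5.56 when genes without reads in wild-type are set to the bound given by 3 reads per library. Of these genes, SPAC750.01, SPAC750.05c and SPAC750.06c could pass the filter only through Δ*top1* cells, so the SPAC750 strain differences depend in part on the filter. The 7 SPAC5H10 genes had medians near 0, of -0.29 and 0.0721 with H2O2 in Δ*top1* and wild-type cells, and -0.0567 and 0.015 between the treated and the untreated strains, though single genes ranged from -1.11 to 0.88 between the treated strains. For the 8 SPBC1683 genes these medians were 0.567, 0.506, 0.167 and -0.102. Over the 78 members tested they were 0.724, 0.659, 0.444 and 0.257, while the medians over all genes were within 0.0074 of 0. By chromosome end, within 100 kb, all 6 members called higher in untreated Δ*top1* cells lay at the right end of chromosome I, where 10 of 15 members were tested. At that end 9 members were higher in treated Δ*top1* cells, against 6 of 16 tested at the left end of I, 6 of 22 at the left end of II and 6 of 11 at the right end of II. Of the 9, SPAC186.04c, SPAC186.08c, SPAC750.01, SPAC750.05c and SPAC750.06c could pass the filter only through Δ*top1* cells. At the left end of II the same held for SPBPB21E7.02c and SPBPB21E7.10. The counts by end, treated and untreated, thus depend in part on the filter. Of all genes tested, 4.86% were higher in treated and 0.179% in untreated Δ*top1* cells.

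**Figure D1:**
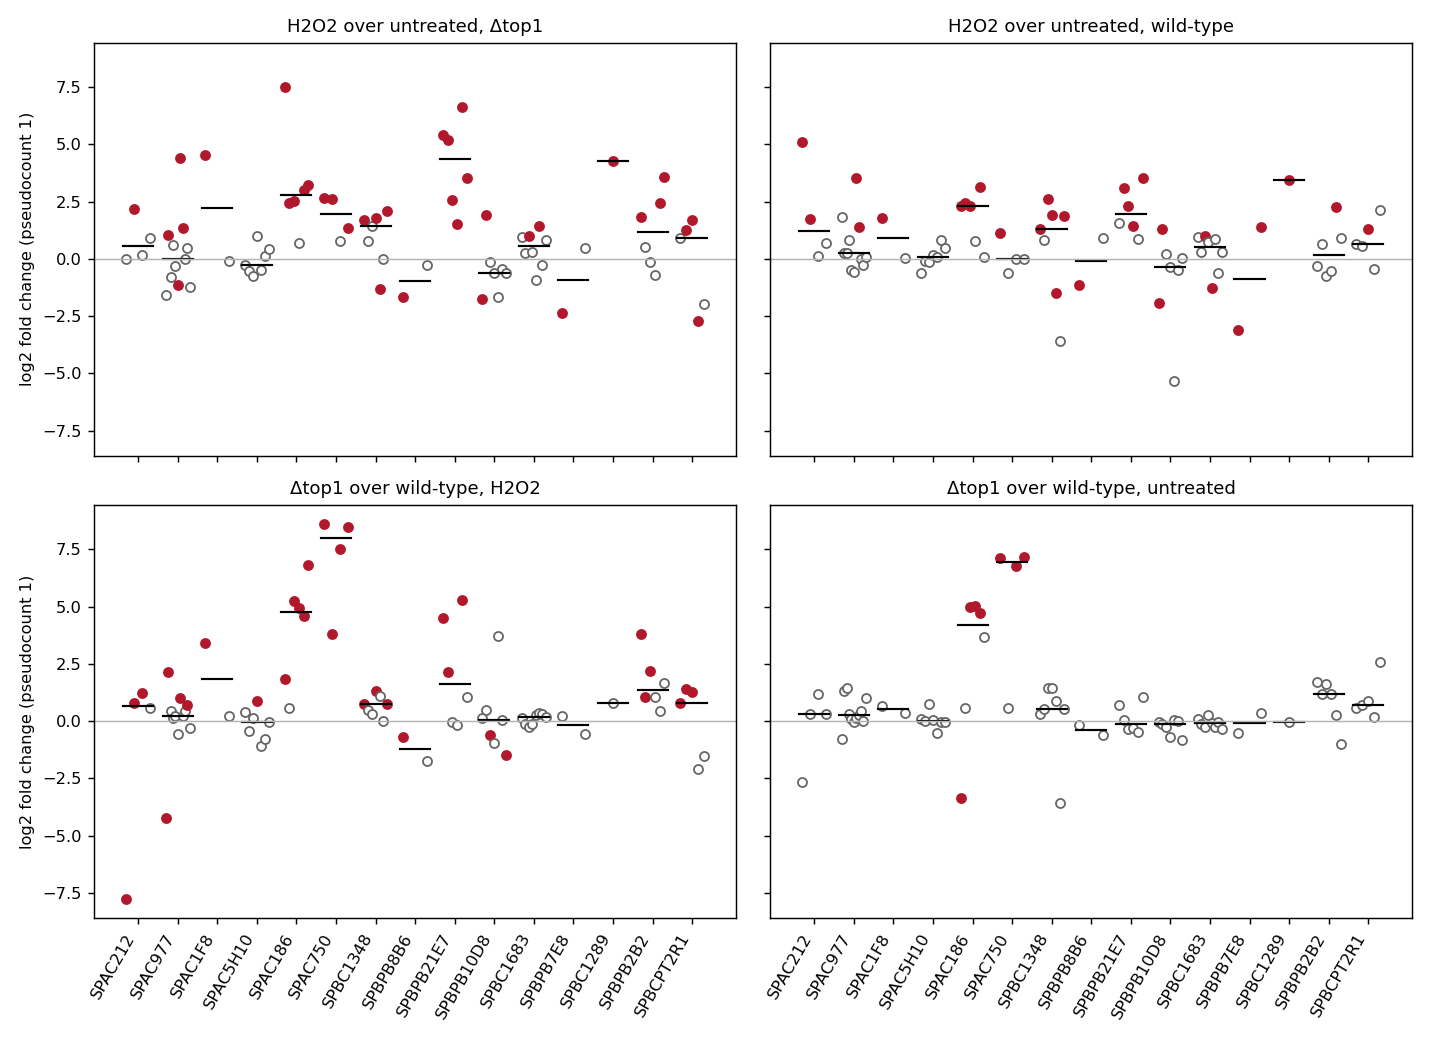
Log2 fold changes of the 78 members tested, by clone, ordered along chromosome I and then along II, for the response to H2O2 in Δtop1 and in wild-type cells (top) and for Δtop1 over wild-type cells with and without H2O2 (bottom). Each point is 1 gene, filled where it was called, and black bars are the medians of each clone. The medians of the SPAC186 and SPAC750 genes stand far above 0 in both strain comparisons, at 4.2 and 6.94 untreated, while single genes such as SPAC186.02c lie elsewhere.

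At the right end of chromosome I, members between 39.6 and 9.33 kb from the end were read mainly in the strain lacking *top1*, except SPAC750.03c and SPAC750.04c, whose few reads were all from wild-type cells. SPAC750.01, an aldo-keto reductase of the kind that reduces carbonyl groups with NADPH, had 4737 and 6177 normalized counts in treated and 690.3 and 1090.5 in untreated Δ*top1* cells, against 13.1 and 12.4 in treated and 4.97 and 5.65 in untreated wild-type cells. The strains did not overlap in either condition, and the log2 difference was 8.62 ± 0.24 (adjusted p = 9.6e-07, limma) with H2O2 and 7.11 ± 0.24 (adjusted p = 4.7e-06) without. As given above, this gene could pass the filter only through Δ*top1* cells, so these calls are not independent of the filter. It shares 37.6% of its words with other genes, and with its copy SPAC977.14c it summed to 1.29 times as much in Δ*top1* cells with H2O2 and 1.198 times without. SPAC186.05c, a member of the Gdt1 family, whose budding yeast relative is a Golgi transporter of calcium and manganese, had 1814 and 1938 normalized counts in treated and 1017 and 1345 in untreated Δ*top1* cells, against 126 and 28.6 in treated and 60.5 and 19.8 in untreated wild-type cells. It was higher in Δ*top1* cells by 4.93 ± 0.66 with H2O2 and 5.03 ± 0.66 without, and its response to H2O2 passed in neither strain.

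A further pair of genes at this end followed the strain and the treatment. SPAC186.04c, an uncharacterized protein, had 464 and 636 normalized counts in treated and 80.0 and 109 in untreated Δ*top1* cells, against 28.3 and 6.21 in treated and 0.829 and 3.77 in untreated wild-type cells. SPAC186.06, annotated as an isomerase, had 619 and 516 in treated and 33.3 and 139 in untreated Δ*top1* cells, against 49.0 and 9.93 in treated and 0.829 and 2.83 in untreated wild-type cells. Both rose with H2O2 in both strains, SPAC186.04c by 2.53 ± 0.67 in Δ*top1* and 2.30 ± 0.67 in wild-type cells, and SPAC186.06 by 3.03 ± 0.82 and 3.14 ± 0.82, and in treated cells they were 5.23 ± 0.67 and 4.60 ± 0.82 higher in Δ*top1*. Their untreated differences of 5 ± 0.67 and 4.71 ± 0.82 rest on wild-type values of at most 3.77 normalized counts, with 1 read in replicate 1. The untreated calls of SPAC186.04c, SPAC186.05c and SPAC186.06 were lost without untreated Δ*top1* replicate 2, where the differences were 4.78, 4.83 and 3.70. They were also lost for SPAC186.04c (4.31) and SPAC186.06 (4.18) without untreated wild-type replicate 1, and for SPAC186.05c (4.25) and SPAC186.06 (5.25) without untreated wild-type replicate 2. That of SPAC186.06 was also lost without either treated Δ*top1* library (4.71), with a pseudocount of 5 (3.46), in limma without the trend (4.71), in edgeR (5.53) and with only the compared groups (4.71).

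SPAC186.08c, an L-lactate dehydrogenase, which interconverts pyruvate and lactate, and SPAC186.07c and SPAC186.02c, hydroxyacid dehydrogenases, lie in the same stretch. SPAC186.08c had 119 and 219 normalized counts in treated and 14.3 and 18.7 in untreated Δ*top1* cells, against 1.09 and 0 in treated and 0.829 and 0 in untreated wild-type cells. This was 290 times as much in Δ*top1* cells with H2O2, from 305 reads against 1 (95% counting interval from 51.7 up), and 37.9 times as much without, from 38 reads against 1 (interval from 6.4 up). It rose with H2O2 in Δ*top1* cells by 3.22 ± 0.72 on the log2 scale (adjusted p = 0.0041, limma). SPAC186.07c stayed below the filter, with 12.1 and 14.5 normalized counts in treated Δ*top1* cells and at most 2.18 in every other library. The named neighbour *pdc102*, a pyruvate decarboxylase gene next to SPAC186.08c, had 129 and 142 in treated and 12.4 and 19.6 in untreated Δ*top1* cells, against 2.18 and 0 in treated and 1.66 and 0 in untreated wild-type cells.

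SPAC186.02c, 48.2 kb from the end, behaved differently. It had 234 and 137 normalized counts in treated Δ*top1* cells and no read in untreated Δ*top1* cells, against 50.1 and 49.7 in treated and 13.3 and 6.59 in untreated wild-type cells. The treated strains did not overlap and neither did the untreated ones, in opposite directions. With H2O2 it was at least 69.9-fold higher than in untreated cells in Δ*top1*, taking a floor of 3 reads per library, and 2.29 ± 0.49 higher on the log2 scale in wild-type (adjusted p = 0.0031, limma). Between the strains it was 1.82 ± 0.49 higher in Δ*top1* cells with H2O2 (adjusted p = 0.035) and at least 3.74-fold lower without, where it was the 1 member called lower. The treated call was lost without treated Δ*top1* replicate 1 (1.44), and without treated wild-type replicate 1 (1.83) or 2 (1.82), and the untreated call was lost without untreated wild-type replicate 1 (-2.92), with a pseudocount of 5 (-1.54), in edgeR on the recovered reads, and when only the untreated groups were fitted. Farther in, 50.2 kb from the end, the named flocculin-like gene *pfl9* fell with H2O2 in both strains, and its strain differences did not pass.

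**Figure D2:**
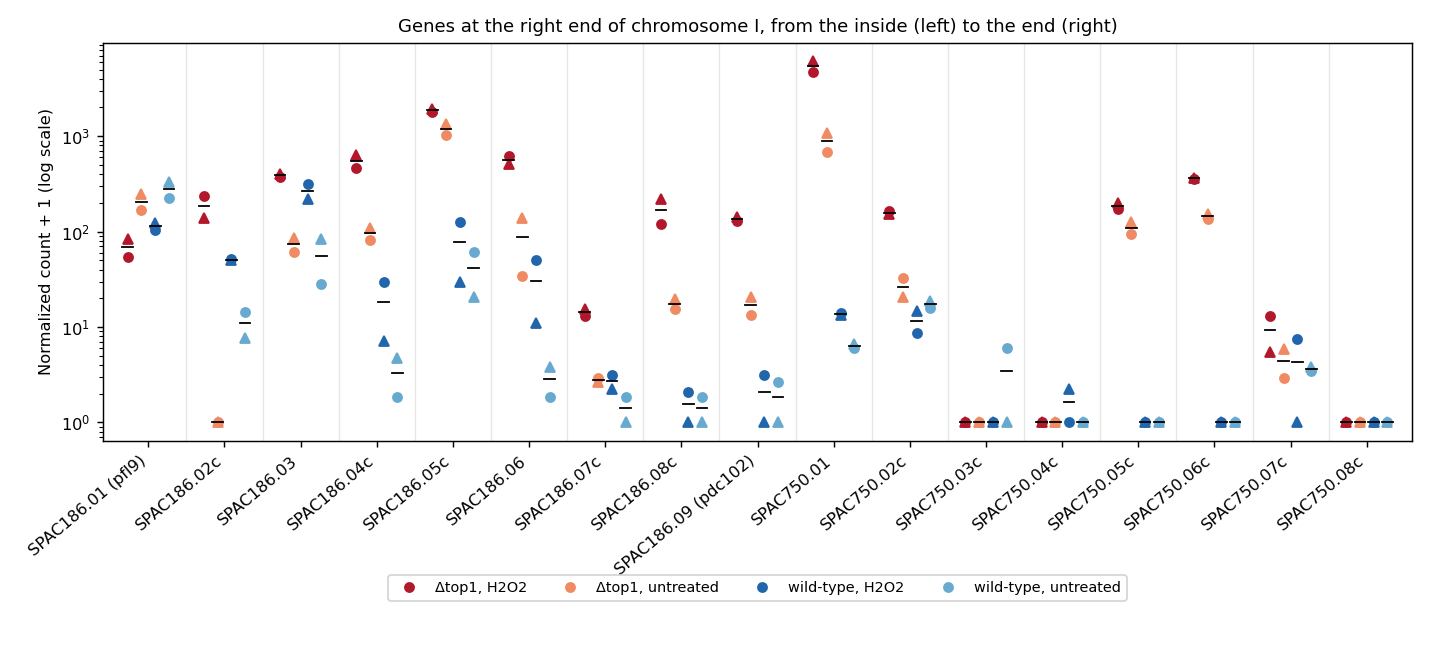
Normalized count + 1 on a log axis for the 15 members and 2 named neighbours at the right end of chromosome I, from the inside (left) to the end (right). Points are libraries (circles, replicate 1, triangles, replicate 2), bars are group means. From SPAC186.04c to SPAC750.06c the Δtop1 libraries lie above the wild-type ones of the same treatment, except for SPAC750.03c and SPAC750.04c, which had at most 4.97 normalized counts in any library.

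Closer to the end, SPAC750.05c and SPAC750.06c had no read in any wild-type library. SPAC750.06c, an uncharacterized protein 9.33 kb from the end, had 358 and 363 normalized counts in treated and 134 and 152 in untreated Δ*top1* cells, at least 103-fold and at least 54.0-fold more than wild-type. SPAC750.05c (*ftm4* in ASM294v3), a protein with transmembrane helices, had 171 and 199 in treated and 92.4 and 126 in untreated Δ*top1* cells, at least 53.0-fold and at least 41.2-fold more. The reverse was seen for a copy of SPAC750.06c at the left end of the same chromosome. SPAC212.01c, 28.7 kb from that end, had no read in any Δ*top1* library, against 222 and 219 normalized counts in treated and 0 and 39.6 in untreated wild-type cells, so that it was at least 66.5-fold lower in Δ*top1* cells with H2O2. Its call between the treated strains was lost in DESeq2 on the recovered reads. These minimum folds hold only for reads counted as each gene's own. They do not bound its transcript, since 93.7% of the words of SPAC750.06c, 95.3% of SPAC750.05c and 100% of SPAC212.01c are shared.

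The sequences of these copies are shown because their values ran in opposite directions while their letters hardly differ. Their coding sequences of 843 bases, read from ASM294v3, were 99.8% identical and differed at 2 positions, both inside the 60-base stretch below (chromosome I:5569540-5569599, minus strand, and I:28942-29001, plus strand), in which the capitals mark the differing bases.
SPAC750.06c: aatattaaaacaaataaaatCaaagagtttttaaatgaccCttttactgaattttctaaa
SPAC212.01c: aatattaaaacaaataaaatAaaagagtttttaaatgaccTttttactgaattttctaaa
SPAC750.05c and its copy SPBC1348.02 (*ftm5*) differed at 3 of 1035 coding positions, 1 of them in the stretch below (I:5566499-5566558, minus strand, and II:8662-8721, plus strand).
SPAC750.05c: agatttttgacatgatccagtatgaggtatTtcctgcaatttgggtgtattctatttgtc
SPBC1348.02: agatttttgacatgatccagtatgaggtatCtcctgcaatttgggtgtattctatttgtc

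Sums over copies do not depend on how reads are split among them, provided that each shared read was counted for 1 of the summed copies. Since the counter is uncertain, it is not known whether shared reads were dropped. The 6 copies of the SPAC212.01c group (SPAC212.01c, SPAC212.04c, SPAC750.06c, SPBC1348.01, SPBCPT2R1.01c and SPBCPT2R1.04c) together had 5250 and 5278 normalized counts in treated and 1494 and 1826 in untreated Δ*top1* cells, against 2629 and 2669 in treated and 989.5 and 996.5 in untreated wild-type cells. The sums did not overlap between any of the groups compared, and were 1.99 times as high in Δ*top1* cells with H2O2 and 1.67 times without, and 3.17 times as high with H2O2 in Δ*top1* and 2.67 times in wild-type cells. Within the group, SPBCPT2R1.04c had the highest mean, with 2623 and 2691 in treated and 722 and 925 in untreated Δ*top1* cells, against 1102 and 1121 in treated and 454 and 446 in untreated wild-type cells. It rose in both strains, by 1.70 ± 0.12 in Δ*top1* and 1.30 ± 0.12 in wild-type cells, and was 1.26 ± 0.12 higher in treated Δ*top1* cells (adjusted p = 0.00082, limma). Its wild-type change was under 2-fold under equal totals (0.929). SPAC212.04c, of whose words 43.4% were shared, also rose in both strains, by 2.19 ± 0.12 in Δ*top1* and 1.74 ± 0.12 in wild-type cells, and was 0.77 ± 0.12 higher in treated Δ*top1* cells.

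For the copies of SPAC750.05c the strain differences ran both ways. SPAC977.01 (*ftm1*) had 0 and 12.2 normalized counts in treated and 17.1 and 5.70 in untreated Δ*top1* cells, against 78.4 and 57.1 in treated and 20.7 and 16.0 in untreated wild-type cells, a log2 difference of -4.22 ± 1.08 with H2O2 (adjusted p = 0.031, limma), a call that was lost without treated Δ*top1* replicate 1 (-2.36). SPBPB2B2.19c had no read in any library. SPBC1348.02 held most of the reads of the family, with 4461 and 4759.8 in treated and 2337 and 3094 in untreated Δ*top1* cells, against 3714 and 2972 in treated and 1813 and 1962 in untreated wild-type cells. The sum of the 4 copies was 1.41 times as high in Δ*top1* cells with H2O2 and 1.49 times without.

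A family of transporters showed a larger difference in its sum. SPAC750.02c, 17.5 kb from the right end of I, had 162 and 151 normalized counts in treated and 31.4 and 19.6 in untreated Δ*top1* cells, against 7.62 and 13.7 in treated and 14.9 and 17.9 in untreated wild-type cells. It rose with H2O2 in Δ*top1* cells by 2.61 ± 0.39, gave -0.63 ± 0.39 in wild-type cells, and was 3.81 ± 0.39 higher in treated Δ*top1* cells (adjusted p = 0.0012, limma). Its copy SPAC977.04 at the left end was also higher in treated Δ*top1* cells, by 2.13 ± 0.39. With SPBC1348.05 and SPBPB2B2.16c, the 4 copies summed to 260.1 and 265.9 in treated and 84.75 and 97.8 in untreated Δ*top1* cells, against 52.26 and 52.15 in treated and 40.61 and 33.91 in untreated wild-type cells, 5.04 times and 2.45 times as much in Δ*top1* cells. With H2O2 the sum was 2.88 times as high in Δ*top1* and 1.40 times in wild-type cells. Every word of SPAC750.02c also occurs in SPBPB2B2.16c, so reads may be split between these copies. SPBC1348.05 rose with H2O2 in wild-type cells by 2.60 ± 1.18, a call that did not hold without treated wild-type replicate 1 (2.0), without untreated wild-type replicate 2 (0.726), without either treated Δ*top1* library (2.6), under equal totals (2.3) or upper quartiles (2.38), in edgeR (1.8) or with only the compared groups (2.6).

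Some copies were read in single libraries of a group and not in others. SPBPB10D8.05c, 1 of 4 neighbouring transporter genes at the left end of II, had 168 normalized counts in treated Δ*top1* replicate 2, 1738 in untreated Δ*top1* replicate 2, 1602 in untreated wild-type replicate 2 and 0 in the other 5 libraries. Every 31-base word of this gene also occurs in another gene. Its copy SPBPB10D8.06c had between 2988 and 6461 in the 8 libraries, and the 4 copies together had 5615 and 4534 in treated and 6360 and 9299 in untreated Δ*top1* cells, against 8029 and 5670 in treated and 8151 and 10378 in untreated wild-type cells. SPBC1348.10c had 140.1 in untreated wild-type replicate 1 and 0 elsewhere, while its copy SPAC977.09c (*plb4*), a phospholipase gene, had 802 in that library and 1128 in the other. Neither SPBPB10D8.05c nor SPBC1348.10c passed in any comparison. The fourth transporter of this row, SPBPB10D8.07c, was lower in treated Δ*top1* cells by a log2 difference of -1.47 ± 0.27 (adjusted p = 0.011, limma), with 1317 and 878 normalized counts in Δ*top1* and 3414 and 2583 in wild-type cells. Of its words, 95.7% also occur in SPBPB10D8.04c, so its reads may be split between copies. The sum of the 4 copies in treated Δ*top1* cells was 0.741 times that in treated wild-type cells.

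**Figure D3:**
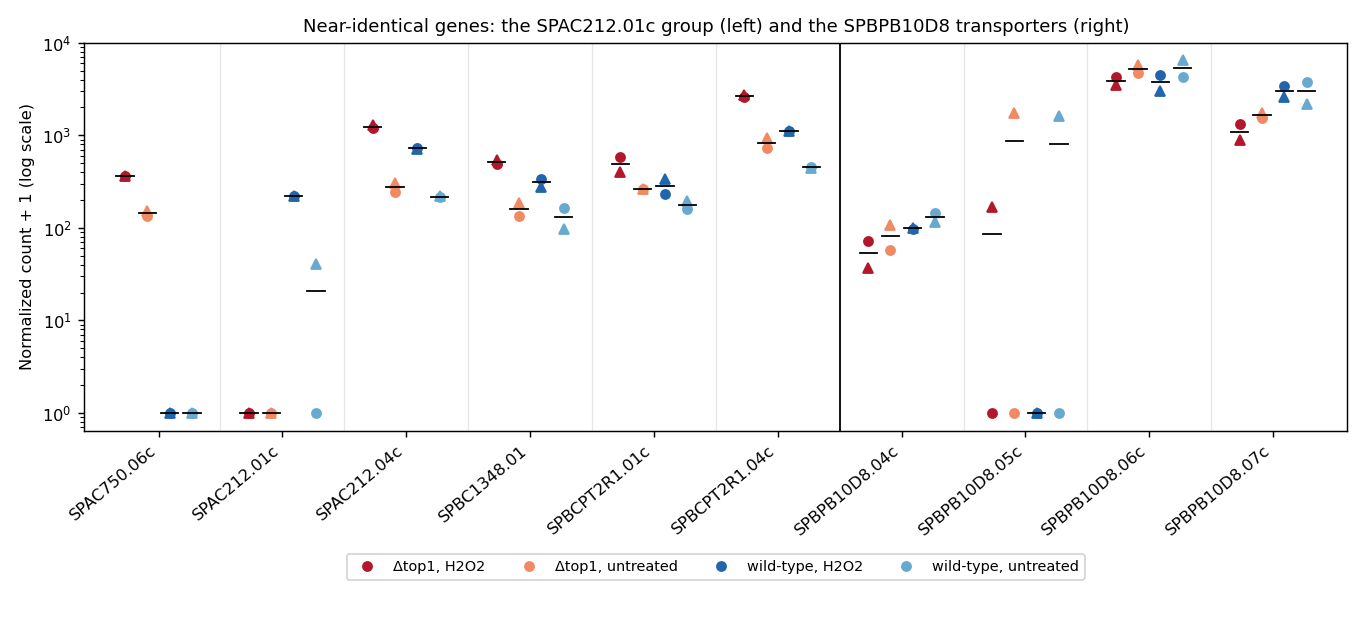
Normalized count + 1 on a log axis for the 6 copies of the SPAC212.01c group (left of the line) and the 4 SPBPB10D8 transporter genes (right of it). Points are libraries (circles, replicate 1, triangles, replicate 2), bars are group means. SPAC750.06c lies at 0 in every wild-type library and SPAC212.01c in every Δtop1 library, and SPBPB10D8.05c is either at 0 or between 168 and 1738.

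Among the members with no shared words, several enzymes gave large responses to peroxide. SPAC1F8.04c (*hhy1* in ASM294v3), a hydrolase 92.4 kb from the left end of I, had 2066 and 2222 normalized counts in treated and 82.8 and 99.4 in untreated Δ*top1* cells, against 147 and 276 in treated and 53.0 and 61.2 in untreated wild-type cells. The treated Δ*top1* libraries stood above all others, and the untreated strains did not differ past the threshold. It rose by 4.55 ± 0.26 in Δ*top1* cells (adjusted p = 1.7e-06, limma) and by 1.80 ± 0.26 in wild-type cells, and was 3.40 ± 0.26 higher in treated Δ*top1* cells (adjusted p = 0.00026). SPBPB21E7.04c (*cmt2*), a catechol O-methyltransferase, which passes methyl groups from S-adenosylmethionine to catechols, had 3741 and 3325 in treated and 88.6 and 100.2 in untreated Δ*top1* cells, against 1124 and 555 in treated and 119 and 68.8 in untreated wild-type cells. It rose by 5.21 ± 0.34 in Δ*top1* and 3.11 ± 0.34 in wild-type cells, and was 2.16 ± 0.34 higher in treated Δ*top1* cells.

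The other tested members of clone SPBPB21E7, 60.6 to 76.3 kb from the left end of II, rose as well in Δ*top1* cells. All 6 members of this clone that were tested rose in Δ*top1* cells (12.6% of all genes did) and 4 of them in wild-type cells (12.2% of all genes), with median log2 changes of 4.38 and 1.94. SPBPB21E7.02c and SPBPB21E7.10 could pass the filter only through treated Δ*top1* cells. The count of 6 and the median of 4.38 are therefore not independent of the filter. SPBPB21E7.02c, of the phosphoglycerate mutase family, had 339 and 118 normalized counts in treated and 2.86 and 4.89 in untreated Δ*top1* cells, against 15.2 and 3.73 in treated and 0.829 and 3.77 in untreated wild-type cells. It rose by 5.40 ± 0.83 in Δ*top1* cells (adjusted p = 0.00053, limma) and gave 1.57 ± 0.83 in wild-type cells, which did not pass, and its difference of 4.52 ± 0.83 between the treated strains was lost without treated Δ*top1* replicate 1 (3.76). SPBPB21E7.10 and SPBPB21E7.11 are uncharacterized proteins that overlap by 601 bases on opposite strands, so their reads could be exchanged if strand was not used. SPBPB21E7.10 had 177 and 55.6 in treated and 0 and 0 in untreated Δ*top1* cells, at least 43.8-fold higher with H2O2, against 5.44 and 0 in treated and 0 and 0.942 in untreated wild-type cells. Its strain difference with H2O2, 5.30 ± 1.21 on the log2 scale, was lost without treated Δ*top1* replicate 1 (4.48) and in DESeq2 on the recovered reads. SPBPB21E7.11 had 435 and 234 in treated and 26.7 and 26.1 in untreated Δ*top1* cells, against 253 and 90.6 in treated and 11.6 and 13.2 in untreated wild-type cells, and rose by 3.55 ± 0.47 in Δ*top1* and 3.51 ± 0.47 in wild-type cells. The pseudogene SPBPB21E7.08 rose to 4039 and 4286 in treated Δ*top1* cells, against 644 and 749.8 untreated, and to 4644 and 4018 in treated wild-type cells, against 945 and 806 untreated.

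Another pseudogene of high response was SPAC977.13c, a hydrolase gene with frameshifts 58.3 kb from the left end of I. It had 1497 and 1247 normalized counts in treated and 61.9 and 66.0 in untreated Δ*top1* cells, against 666 and 682 in treated and 55.5 and 60.3 in untreated wild-type cells. The treated strains did not overlap, and it rose by 4.40 ± 0.13 in Δ*top1* and 3.52 ± 0.13 in wild-type cells and was 1.02 ± 0.13 higher in treated Δ*top1* cells. SPBC1289.14, an adducin-domain protein 126 kb from the right end of II, had 493 and 814 in treated and 25.7 and 38.3 in untreated Δ*top1* cells, against 256 and 510.4 in treated and 26.5 and 38.6 in untreated wild-type cells. It rose by 4.29 ± 0.38 and 3.46 ± 0.38, and its treated libraries overlapped between the strains. SPBC1348.12, a DNA-binding transcription factor 35.1 kb from the left end of II, had 839.5 and 877 in treated and 183 and 227 in untreated Δ*top1* cells, against 537 and 493 in treated and 126 and 156 in untreated wild-type cells, a rise of 2.07 ± 0.15 and 1.87 ± 0.15.

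**Figure D4:**
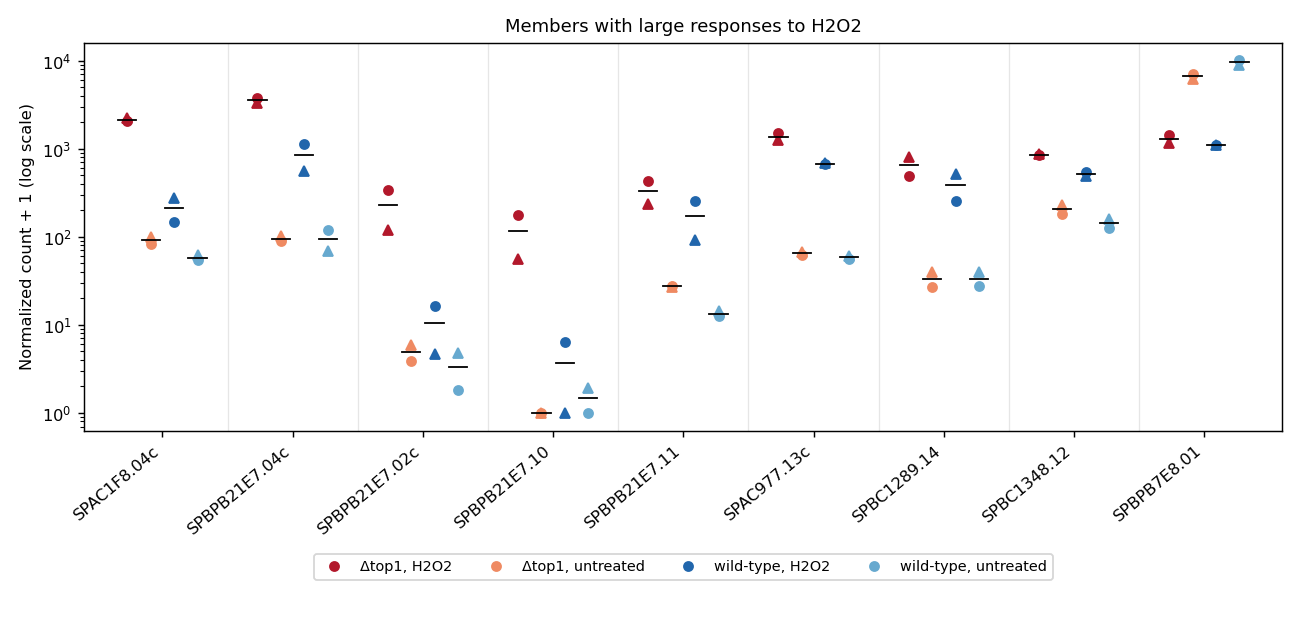
Normalized count + 1 on a log axis for 9 members with no shared words and large responses to H2O2. Points are libraries (circles, replicate 1, triangles, replicate 2), bars are group means. SPAC1F8.04c reaches 2066 and 2222 in treated Δtop1 cells, against 147 and 276 in treated wild-type cells, while SPBPB7E8.01 falls in both strains.

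Windows of 300 bases before the annotated gene starts, from RefSeq's ASM294v3, were searched on both strands for letters bound by stress factors, since many members moved together. These were TGACGT (Atf1), TTACTAA and TTACGTAA (Pap1), GAANNTTC (heat shock factor) and CCCCTC (Rst2), and no search letter lies within another. TGACGT stood in 9 of 108 member windows (8.33%) and in 6.06% of 5128 windows of the table's genes, in 5 of the 21 members that rose in both strains and in 4 of the 28 higher in treated Δ*top1* cells. TTACTAA stood in 16 member windows (14.8%) and 12.7% of all, in 6 of the 21 that rose in both strains and in 9 of the 28 higher in treated Δ*top1* cells. GAANNTTC stood in 11.1% of member windows and 11.4% of all, in 0 of the 21 and in 2 of the 28. CCCCTC stood in 1.85% and 1.91%, in 1 of the 21 and in 0 of the 28, and TTACGTAA in no member window and in 0.546% of all. Near copies share their windows, so these counts are not independent, and a match is a description of the letters alone. The windows of 3 strongly responding genes are printed with these letters, on either strand, in capitals. SPAC1F8.04c (I:93880-94179, minus strand) has TTACTAA 144 bases before its start, SPAC186.02c (I:5530961-5531260, minus strand) has TGACGT 206 bases before it, and SPBC1289.14 (II:4411941-4412240, plus strand) has TGACGT at 48, TTACTAA at 248 and CCCCTC at 295 bases.
SPAC1F8.04c: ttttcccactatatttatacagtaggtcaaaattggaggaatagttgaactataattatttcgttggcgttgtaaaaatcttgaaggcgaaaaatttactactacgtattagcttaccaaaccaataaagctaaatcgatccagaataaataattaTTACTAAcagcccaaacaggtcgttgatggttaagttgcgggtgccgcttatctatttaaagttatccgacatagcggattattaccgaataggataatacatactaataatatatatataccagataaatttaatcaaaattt
SPAC186.02c: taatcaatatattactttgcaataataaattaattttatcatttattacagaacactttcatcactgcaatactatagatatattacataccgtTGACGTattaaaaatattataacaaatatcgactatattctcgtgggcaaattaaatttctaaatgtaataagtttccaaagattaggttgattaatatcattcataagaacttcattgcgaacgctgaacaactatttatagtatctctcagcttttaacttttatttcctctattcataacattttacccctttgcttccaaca
SPBC1289.14: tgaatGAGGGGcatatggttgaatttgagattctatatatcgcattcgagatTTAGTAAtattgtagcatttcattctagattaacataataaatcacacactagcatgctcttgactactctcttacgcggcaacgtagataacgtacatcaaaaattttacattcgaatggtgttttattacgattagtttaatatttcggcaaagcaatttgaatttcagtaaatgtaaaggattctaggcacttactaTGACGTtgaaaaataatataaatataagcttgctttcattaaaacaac
The window of SPBPB21E7.04c holds none of these letters.

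L-asparaginases, which hydrolyse asparagine to aspartate and ammonia, are present as 2 pairs of near copies, and the pairs moved in opposite directions. SPAC977.12 at the left end of I had 2185 and 2399 normalized counts in treated and 4913 and 5092 in untreated Δ*top1* cells, against 3296 and 3449.6 in treated and 5113 and 5024 in untreated wild-type cells. Its copy SPBPB8B6.05c at the left end of II, 98.8% identical over 1071 coding bases, had 813 and 654 in treated and 2404 and 2233 in untreated Δ*top1* cells, against 1321 and 1080.3 in treated and 2666 and 2537 in untreated wild-type cells. In both genes the treated libraries lay below the untreated ones, and those of treated Δ*top1* cells lay lowest. SPBPB8B6.05c fell by 1.67 in Δ*top1* and by 1.12 in wild-type cells (SE 0.13), and SPAC977.12 fell by 1.13 in Δ*top1* cells (SE 0.08) and gave -0.59 ± 0.08 in wild-type cells, less than 2-fold. The wild-type change of SPBPB8B6.05c was -0.977, under 2-fold, without treated wild-type replicate 2. The summed counts of this pair were 0.413 times the untreated level in Δ*top1* and 0.596 times in wild-type cells.

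The other pair rose. SPAC186.03 at the right end of I had 373 and 404 normalized counts in treated and 59.99 and 84.8 in untreated Δ*top1* cells, against 314 and 217 in treated and 27.3 and 81.9 in untreated wild-type cells. SPBPB21E7.09, 98.6% identical to it over 1083 coding bases, had 1629.7 and 1788 in treated and 505 and 683 in untreated Δ*top1* cells, against 1930.5 and 1967 in treated and 655 and 808 in untreated wild-type cells. SPAC186.03 rose by 2.43 ± 0.44 in Δ*top1* and 2.43 ± 0.44 in wild-type cells and SPBPB21E7.09 by 1.54 ± 0.15 and 1.42 ± 0.15, and the sum of the pair was 3.15 and 2.82 times as high with H2O2. Neither gene differed past the threshold between the strains, with differences of 0.57 ± 0.44 and -0.19 ± 0.15 with H2O2.

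**Figure D5:**
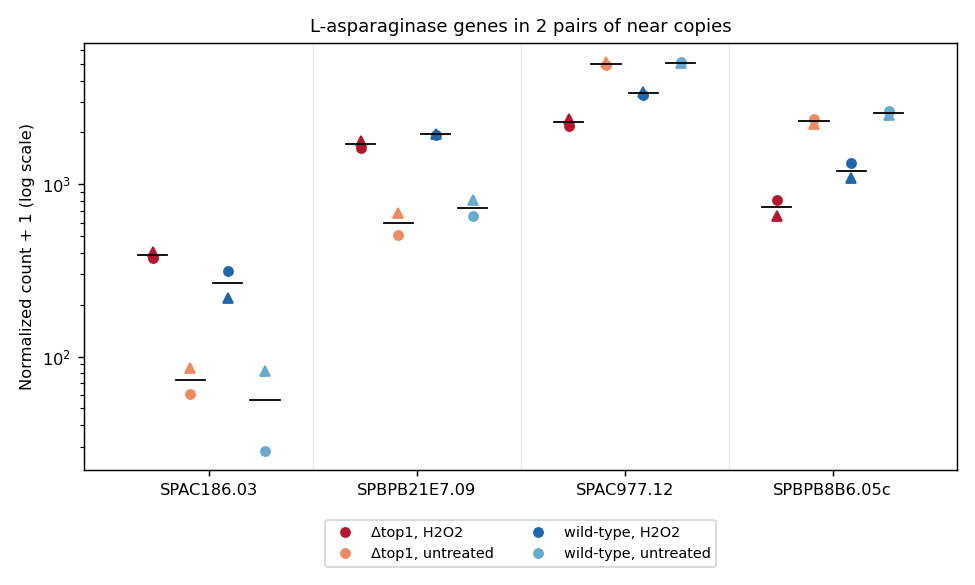
Normalized count + 1 on a log axis for the 4 L-asparaginase genes, with the rising pair left and the falling pair right. Points are libraries (circles, replicate 1, triangles, replicate 2), bars are group means. With H2O2 the copies SPAC186.03 and SPBPB21E7.09 rise in both strains, while SPAC977.12 and SPBPB8B6.05c fall to 2185 and 813 normalized counts in treated Δtop1 replicate 1.

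Several members near the ends are transporters and enzymes that passed in both strains or in the strain comparison. SPAC977.14c, an aldo-keto reductase and a partial copy of SPAC750.01 with 93.7% identity over 978 aligned coding bases, had 45158 and 55066 normalized counts in treated and 15874 and 24394 in untreated Δ*top1* cells, against 36908 and 49516 in treated and 11168 and 23913 in untreated wild-type cells. It rose by 1.34 ± 0.35 in Δ*top1* and 1.39 ± 0.35 in wild-type cells. The wild-type change was under 2-fold without untreated wild-type replicate 1 (0.838) and with quantile normalization (0.949), and the gene did not differ past the threshold between the strains. SPBPB2B2.01 (*nrg1* in ASM294v3), an amino-acid permease 80.0 kb from the right end of II, had 2343 and 1211 in treated and 479 and 482 in untreated Δ*top1* cells, against 171 and 82.0 in treated and 188 and 116 in untreated wild-type cells. It rose by 1.81 ± 0.40 in Δ*top1* cells and gave -0.32 ± 0.40 in wild-type cells, and was 3.82 ± 0.40 higher in treated Δ*top1* cells (adjusted p = 0.0015, limma). The untreated strains did not overlap, yet the difference of 1.70 ± 0.40 did not pass (adjusted p = 0.27). SPBPB2B2.06c, a phosphatase, was 2.20 ± 0.30 higher in treated Δ*top1* cells, with 272 and 385 normalized counts in treated and 265 and 478 in untreated Δ*top1* cells, against 61.0 and 79.5 in treated and 103 and 133 in untreated wild-type cells.

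A pair of neighbouring genes with roles in sulfur metabolism moved in opposite directions. SPBPB10D8.01, a cysteine transporter 81.0 kb from the left end of II, had 388 and 454 normalized counts in treated and 1356 and 1515 in untreated Δ*top1* cells, against 378 and 381 in treated and 1377 and 1548 in untreated wild-type cells. It fell by 1.77 in Δ*top1* and by 1.94 in wild-type cells (SE 0.11). The arylsulfatase gene SPBPB10D8.02c, which releases sulfate from organic esters and overlaps SPBPB10D8.01 by 129 bases on the other strand, rose by 1.92 ± 0.23 and 1.32 ± 0.23, with 3313 and 3834 in treated and 762 and 1162 in untreated Δ*top1* cells, against 2245 and 2967 in treated and 876 and 1224 in untreated wild-type cells. Its wild-type change was under 2-fold under equal totals (0.944). SPBPB2B2.14c, an uncharacterized protein with 90.6% shared words, had 41.7 and 51.2 normalized counts in treated and 14.3 and 0 in untreated Δ*top1* cells, against 11.98 and 16.1 in treated and 8.29 and 5.65 in untreated wild-type cells, and rose in Δ*top1* cells by 3.59 on the log2 scale. With its copies SPAC977.06, SPBC1348.07 and SPBPB2B2.07c it summed to 3.81 times as much with H2O2 in Δ*top1* and 3.76 times in wild-type cells. SPBPB2B2.11 (*tgd1*) rose by 2.44 ± 0.27 and 2.27 ± 0.27, but it lies within *gal10* on the other strand over 3291 bases.

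All 19 members more than 100 kb from an end were tested. Of these, 3 rose with H2O2 in each strain (15.8%, against 12.6% of all genes in Δ*top1* and 12.2% in wild-type cells) and 1 was higher in treated Δ*top1* cells (5.26%, against 4.86%). Of the 59 tested members within 100 kb, 28 rose in Δ*top1* cells, 21 rose in wild-type cells and 27 were higher in treated Δ*top1* cells, and the difference between the 2 sets of members was not tested. SPBC1683.01 (*pho841*), an inorganic phosphate transporter, had 6220.3 and 8263 normalized counts in treated and 3472 and 3871 in untreated Δ*top1* cells, against 5662 and 7417 in treated and 3112 and 3697 in untreated wild-type cells, changes of 0.97 ± 0.17 and 0.93 ± 0.17 that stayed under 2-fold. The transporter gene SPBC1683.03c (*amf1*) lay just past that limit, with 1.00 ± 0.20 in each strain, and both of its calls were lost under equal totals (0.799 in Δ*top1* and 0.631 in wild-type cells) and in edgeR (0.974 and 0.95). In Δ*top1* cells it was also under 2-fold without treated replicate 2 (0.925) or untreated replicate 1 (0.796), and in wild-type cells without treated replicate 1 (0.96) or untreated replicate 1 (0.704). SPBC1683.05 (*thi7*) had 2047 and 1601 in treated and 3575 and 3336 in untreated Δ*top1* cells, against 1624 and 1428 in treated and 3735 and 3630.1 in untreated wild-type cells. It fell by 1.27 in wild-type cells (SE 0.12) and gave -0.93 ± 0.12 in Δ*top1* cells, which is under 2-fold. SPAC5H10.03, a phosphoglycerate mutase family gene, gave -0.52 ± 0.15 in Δ*top1* and -0.09 ± 0.15 in wild-type cells, with 6737 and 8136 in treated and 9721 and 11578 in untreated Δ*top1* cells, against 9892 and 9904 in treated and 9354 and 11783 in untreated wild-type cells.

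The 2 SPBPB7E8 genes, which lie far from any end, changed in opposite directions. SPBPB7E8.01, an uncharacterized protein, had 1415 and 1168 normalized counts in treated and 7059 and 6216 in untreated Δ*top1* cells, against 1096 and 1090.3 in treated and 10094 and 8989 in untreated wild-type cells, and fell in both strains, with -2.36 ± 0.12 in Δ*top1* and -3.12 ± 0.12 in wild-type cells. SPBPB7E8.02, of the PSP1 family, had 1164 and 1326 in treated and 959 and 818 in untreated Δ*top1* cells, against 1712 and 1929.7 in treated and 718 and 678 in untreated wild-type cells. It rose by 1.38 ± 0.11 in wild-type cells and gave 0.49 ± 0.11 in Δ*top1* cells, under 2-fold.

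Whether the response to H2O2 differed between the strains was asked with a strain-by-treatment term in the fit. This interaction was called for 7 members with a more positive change in Δ*top1* cells (2.13% of all genes were) and for 2 with a more negative one (1.83%). Of the 10 members that passed in Δ*top1* cells but not in wild-type, it was called for 1, SPAC750.02c (3.24 ± 0.55, adjusted p = 0.04, limma). All words of this gene are shared with copies, and the interaction of the summed copies was not tested. The rest of these 10 are not shown to differ in response. Of the 21 that rose in both strains, it was called, with a more positive change, for SPAC186.02c (5.20 ± 0.69), SPAC1F8.04c (2.74 ± 0.37), SPBPB21E7.04c (2.10 ± 0.47), SPAC750.01 (1.51 ± 0.33) and SPAC977.13c (0.88 ± 0.19). The rest of the 21 are not shown to differ. The remaining more positive change was that of SPBPB7E8.01 (0.76 ± 0.16), and the more negative ones were SPAC977.12 (-0.54 ± 0.11) and SPBPB7E8.02 (-0.89 ± 0.16). Of the 28 members higher in treated Δ*top1* cells, 6 were also higher untreated, 20 rose with H2O2 in Δ*top1* cells and 12 rose in wild-type cells. The count of 28 fell to 18 without treated Δ*top1* replicate 1, and without that library none of these 9 interactions was called.

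In all, 52 members passed in some comparison and 26 were tested and passed in none, among them the fluoride exporters SPAC977.11 (*fex1*) and SPBPB8B6.06c (*fex2*), which share 74.4% and 74.6% of their words and whose sums were 1117 and 1166 in treated and 1434 and 1380 in untreated Δ*top1* cells, against 1087 and 1188 in treated and 1543 and 1346 in untreated wild-type cells. Among the 31 members below the filter, SPBPB2B2.16c had 32.6 normalized counts in untreated Δ*top1* replicate 2 and 0 elsewhere, and SPBC1348.09 had 13.2 in treated Δ*top1* replicate 1 and 0 elsewhere, both with every word shared. SPAC750.08c, at the very end of chromosome I, and SPBCPT2R1.10, SPBPB21E7.05 and SPBPB2B2.19c had no read. The depth allows up to 3 reads per library, 2.44 to 3.73 normalized counts, for a gene whose reads are counted as its own, which bounds SPBPB21E7.05 but not the other 3, where 89.0% to 100% of words are shared.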

How the data were processed

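RNA of 8 libraries, 2 in each of 4 groups, was prepared with a stranded poly(A) kit and sequenced as single reads of 50 bases. The deposited signal values are gene counts that the authors divided by DESeq2 size factors. The methods describe FastQC, Salmon on the ASM294v2 transcriptome and DESeq2, whereas the submitters' processing notes list FastQC, Trimmomatic, STAR, HTSeq, DESeq2 and ASM294v2, so the counter is uncertain. In each library 5164 of 5165 values were whole reads within 0.01 reads, and these reads served for count tests, in which edgeR called 621 genes higher and 549 lower with H2O2 in Δ*top1* cells, 593 and 596 in wild-type cells, and 250 and 224 between the treated strains. No per-sample column was left unused (0).

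Normalized counts were tested as log2(value + 1) in limma 3.58.1 (R 4.3.3), fitting group means to all 8 libraries with the variance trend on, over 5019 genes with a mean of at least 10. Fold changes are on that scale and understate changes of low genes. Calls needed a Benjamini-Hochberg adjusted p under 0.1 and a 2-fold change, 1.5-fold between the treated strains, and the adjusted p alone for the interaction. P-values rest on 2 libraries a group. The spread they use was pooled for each gene over the 4 groups and moderated toward a trend across genes. edgeR 4.0.16 and DESeq2 1.42.0 on recovered reads, other scalings, pseudocounts, filters, a replicate block and leaving out each library were alternatives. The fits were also run on simulated counts with the same dispersion for all genes. Those counts do not represent genes that share reads with copies. Depth allows 3 reads per library as a floor, which, like the 95% intervals, covers counting error only.

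Positions, products and sequences came from ASM294v3, matched by identifier for 109 of 109 members and 5129 of 5165 genes. Shared sequence was the percentage of a gene's 31-base words found in another gene. Named members are the 8 largest called changes without overlap in each comparison, the 6 smallest p-values of the interaction, the highest member of each identifier start, the 5 highest members and those without a read in 1 strain. Other named members were chosen after their values were seen, and members and lists were chosen with earlier results of these data known.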

Additional observations from a re-analysis of the deposited data

Results flagged for a closer look

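For 9 members the change with H2O2 in Δ*top1* cells differed from that in wild-type cells by the test of the difference itself (limma, adjusted p under 0.1), and the value given for each is the change in Δ*top1* cells minus that in wild-type cells on the log2 scale. SPAC186.02c had 5.20, SPAC750.02c 3.24, SPAC1F8.04c 2.74, SPBPB21E7.04c 2.10, SPAC750.01 1.51, SPAC977.13c 0.877 and SPBPB7E8.01 0.758. SPAC977.12 had -0.539 and SPBPB7E8.02 had -0.891. All words of SPAC750.02c are shared with copies. Without treated Δ*top1* replicate 1 none of the 9 passed, with values of 4.82, 3.19, 2.80, 2.02, 1.71, 0.745 and 0.62 in the order above, then -0.472 and -0.797. SPAC186.02c and SPAC1F8.04c passed without any other single library, and SPAC750.02c was lost also without untreated Δ*top1* replicate 2 (2.91). SPAC977.13c was lost without any 1 of 7 libraries, SPBPB7E8.01 also without any 1 of 7, SPAC750.01 and SPAC977.12 without any 1 of 6, SPBPB21E7.04c without any 1 of 5 and SPBPB7E8.02 without any 1 of 4. The value of SPAC750.01 passed in neither edgeR (1.37) nor DESeq2 (1.34), and it was lost with quantile normalization (1.30), as were SPAC977.12 (-0.426), SPAC977.13c (0.791) and SPBPB7E8.01 (0.656). SPAC977.12 was also lost under equal totals (-0.368), and SPAC977.12, SPBPB7E8.01 and SPBPB21E7.04c were lost in limma without the trend.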

How the results depend on the processing

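Of 2276 values of the 115 called gene comparisons under the alternatives, 2111 stayed called, 165 were no longer called and 0 changed sign, and 72 comparisons stayed called throughout. Where counts moved, the cause was not tested unless given. Counting only the 42 tested members with at most 10% shared words, fewer by construction, 18 rose and 2 fell with H2O2 in Δ*top1* cells, 14 rose and 3 fell in wild-type cells, 16 were higher and 1 lower in treated Δ*top1* cells, 3 were higher in untreated Δ*top1* cells, and 1 interaction was more negative. The 6 members higher in untreated Δ*top1* cells became 10 in DESeq2, and the 1 lower became 0 with a pseudocount of 5, in edgeR and with only the compared groups. The 5 lower in treated Δ*top1* cells became 3 under equal totals. The 7 more positive interactions became 4 under quantile normalization and 3 at an adjusted p under 0.05, and the 2 more negative ones became 1 under equal totals, quantile normalization or limma without the trend and 0 at an adjusted p under 0.05. Leaving out each library in turn gave 3 to 8 members higher in untreated and 18 to 28 higher in treated Δ*top1* cells, 0 to 6 more positive and 0 to 3 more negative interactions.

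Under equal totals the median of all genes was -0.203 with H2O2 in Δ*top1* cells, -0.369 in wild-type cells and 0.157 between the treated strains. Under equal totals the SPBPB median became 0.286 in Δ*top1* and 0.291 in wild-type cells and 0.569 between the treated strains, the SPAC977 median 0.386 between the treated strains, and the SPBC1348 median 0.912 in wild-type cells. With a mean of at least 50, which tests fewer genes, the SPBPB medians were 0.176, 0.436 and 0.19 and the SPAC977 median in Δ*top1* cells was 0.452. With a pseudocount of 5 the SPBPB median in wild-type cells was 0.407 and the untreated SPAC186 strain difference 2.72.

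The labels do not say that replicate numbers pair samples. Deviations of same-numbered libraries correlated at 0.066 to 0.617 over the pairs of groups. With the replicate number as a block, 10 members were higher in untreated Δ*top1* cells, and 16 interactions were more positive and 5 more negative.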
